A study of Mus musculus with 6 samples.

Results

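The chemokine receptor genes measured in natural killer (NK) cells of the mouse thymus were Ccr2, Ccr8, Ccr9, Cxcr3, Cxcr4, Cxcr5, Cxcr6 and Cx3cr1. They were taken as the genes of the deposited count table whose Entrez IDs map to these symbols, which gave 8 of 26332 genes. RNA-seq libraries came from 6 C57BL/6 mice, 4 of them wild type (WT) and 2 carrying a Tcf7 knockout (KO), with 1 mouse per library. By the labels, male mice gave libraries WT 1, WT 3 and KO 1, and female mice gave WT 2, WT 4 and KO 2. The thymic cells had been sorted for NK1.1 and NKp46 and against CD3, CD8, TCRbeta and binding of CD1d tetramer. The sources used here do not give the age of the mice, the Tcf7 allele or the cells in which it is lost.

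Chemokine receptors are G protein-coupled receptors of the cell surface. Binding of a chemokine activates inhibitory G proteins, which act through phosphoinositide 3-kinase gamma and Rac on the actin cytoskeleton, so that a cell moves toward the chemokine source. Receptor kinases and arrestins then switch the receptor off. Lymphocytes differ in the receptors they carry, and the set decides which tissues they can enter or stay in. TCF-1, the product of Tcf7, is needed for T cell and innate lymphoid cell development and binds DNA through a high mobility group domain.

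For 7 of the 8 receptors the RefSeq promoter table (GRCm38.p6) held an entry, a window of 250 bases before to 50 bases after the annotated start. The 3 windows below are shown because these receptors differed between the genotypes and stand for the largest rise, a small rise and the fall described below. All are written 5′ to 3′ on the strand of the gene. Capitals mark the letters CTTTGA or CTTTGT, the core of the motif bound by TCF/LEF factors, or their reverse complements TCAAAG and ACAAAG. The Cxcr6 window is chr9:123806227-123806526 on the plus strand, that of Cx3cr1 is chr9:120068247-120068546 on the minus strand, and that of Cxcr4 is chr1:128592250-128592549 on the minus strand.
Cxcr6: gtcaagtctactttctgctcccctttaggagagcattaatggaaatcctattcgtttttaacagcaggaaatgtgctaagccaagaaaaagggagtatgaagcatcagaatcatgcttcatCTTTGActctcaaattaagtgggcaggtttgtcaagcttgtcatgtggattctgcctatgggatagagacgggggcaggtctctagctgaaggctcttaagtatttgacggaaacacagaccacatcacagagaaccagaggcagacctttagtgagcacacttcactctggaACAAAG
Cx3cr1: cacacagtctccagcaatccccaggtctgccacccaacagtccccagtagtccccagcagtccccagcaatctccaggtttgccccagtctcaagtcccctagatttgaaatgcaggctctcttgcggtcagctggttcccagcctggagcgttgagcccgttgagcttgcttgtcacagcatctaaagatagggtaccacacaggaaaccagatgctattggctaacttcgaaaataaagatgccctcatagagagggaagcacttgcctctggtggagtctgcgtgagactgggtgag
Cxcr4: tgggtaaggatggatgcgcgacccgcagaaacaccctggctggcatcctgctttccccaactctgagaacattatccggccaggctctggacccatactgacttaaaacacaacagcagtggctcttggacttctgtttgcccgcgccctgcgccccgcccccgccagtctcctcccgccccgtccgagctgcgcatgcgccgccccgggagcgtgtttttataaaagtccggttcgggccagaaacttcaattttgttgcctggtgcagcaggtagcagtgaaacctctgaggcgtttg

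The Cxcr6 window held CTTTGA with its first base at position -129 from the start and ACAAAG with its first base at position 45. No match lay in the Cx3cr1 and Cxcr4 windows. Among the other 4 receptors with an entry, Ccr2 had CTTTGT at position -140 and Cxcr3 had CTTTGT at position -162, and the windows of Ccr8 and Ccr9 had no match. The Ccr2 window, chr9:124101933-124102232, lies inside the gene span given below, so its start is not the first base of that span. A TCF/LEF core was thus present in 3 of 7 windows, beside 31.2% of 32851 promoter windows of the same length searched on both strands. The RUNX motif AACCACA, found in 5.27% of windows, lay at position 11 of Cxcr3 alone among the 7. The T-box motif TCACACC, found in 3.98% of windows, lay in none of the 7. These matches are letters in a window and were not linked to any measurement of binding.

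Of the 8 genes, 6 lie on chromosome 9. In RefSeq coordinates of GRCm38.p6 (mm10), Ccr8 spans chr9:120092133-120094906, Cx3cr1 chr9:120048683-120068296, Ccr9 chr9:123767211-123783457, Cxcr6 chr9:123806477-123811754, Ccr2 chr9:124101918-124109140 and Cxcr5 chr9:44511787-44526444. Cxcr4 spans chr1:128588199-128592299 and Cxcr3 chrX:101731535-101734147. The counts are of whole genes and do not tell exons, introns or UTRs apart. Because the kit did not mark strand, reads of overlapping genes cannot be told apart. In GENCODE, 19.3% of the 9991 exon bases of Ccr9 overlap those of an antisense gene. The deposited length of Ccr9 was 4392 bases, so how much of the overlap was counted is not known. Its counts are thus uncertain to an unknown extent. The shares of overlapping exon bases were 3.96% for Cxcr5 (Bcl9l, opposite strand) and 1.74% for Cx3cr1 (Gm33858, opposite strand). The other 5 receptors had no exon overlap.

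The libraries held 16418910 to 31155303 counts in genes. Values are counts scaled to library size by the TMM method (CPM), and 3 counts, the smallest level taken as measurable, corresponded to 0.0988 to 0.180 CPM. The targeted gene Tcf7 was at 811 to 947 CPM in the 4 WT libraries and at 268 and 452 CPM in KO 1 and KO 2, which is -1.35 ± 0.17 on the log2 scale (SE, adjusted p = 2.94e-03). Tcf7 reads were therefore fewer but present in both KO libraries. Genes of the sort, Ncr1 (encoding NKp46) at 820.1 to 1036 CPM in WT and 982 and 739.5 CPM in KO, and Klrb1c (encoding NK1.1) at 1554 to 1704 CPM in WT and 1269 and 1083 CPM in KO, were abundant in all 6 libraries. Klrb1c was called lower in KO (adjusted p = 0.0149). Of genes sorted against, Cd8a was at 1.78 to 20.1 CPM in WT and 79.5 and 64.4 CPM in KO (called higher, adjusted p = 0.0249). Cd3d (0.26, adjusted p = 0.698), Cd3e (1.32, 0.0970), Cd8b1 (2.47, 0.0830) and Trbc1 (-0.25, 0.357) were not called. Cd3g and Trbc2 are given below. WT 4 stood apart from the other WT libraries in 6 of 59 genes screened, Ccr9 among them. Since these are bulk samples, fewer cells of a type and less RNA per cell cannot be told apart.

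Cxcr6 and Cxcr5 rose most in the KO libraries, Cx3cr1 rose less, and Cxcr4 fell. The test was edgeR's quasi-likelihood test on the counts with sex as a term, and calls were made at an adjusted p under 0.05 (Benjamini-Hochberg over 13652 genes). All 8 receptors passed the filter on low counts. Of the 8, 3 were called higher in KO, beside 8.13% of all tested genes, and 1 was called lower, beside 5.58%. In 4 of the 8 the KO libraries lay outside the WT range, beside 39.3% of all tested genes. They were above it in 3 receptors, beside 20.5% of genes, and below it in 1, beside 18.8%. The median log2 fold change was 0.74 over the 8 receptors and 0.02 over all tested genes.

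**Figure D1:**
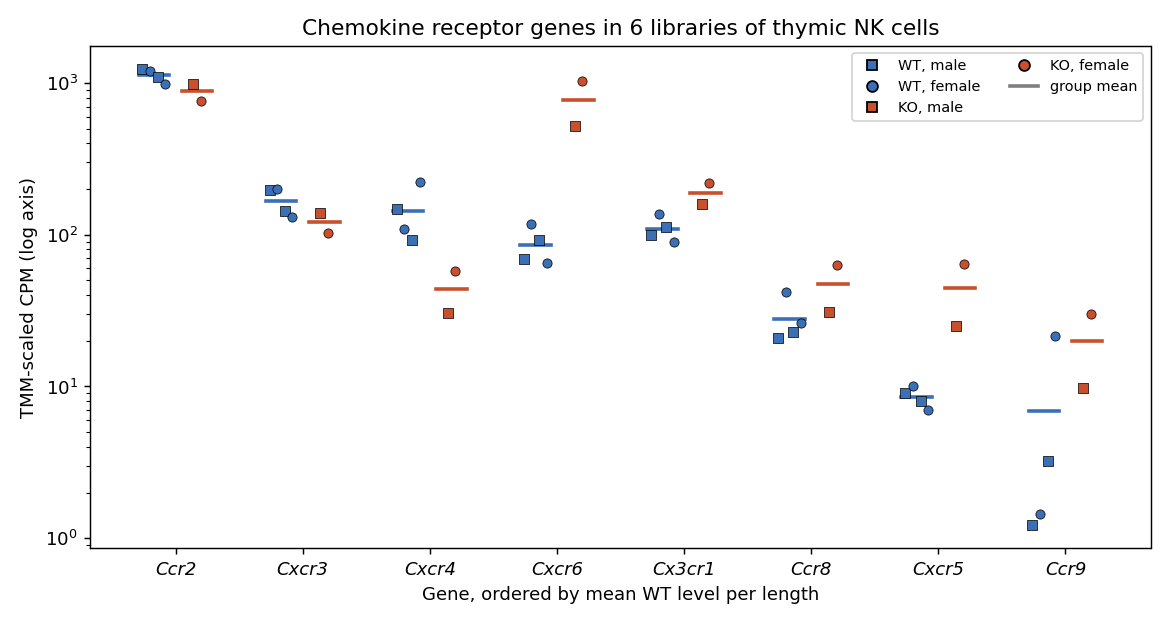
TMM-scaled CPM (log axis) of the 8 receptor genes in each of the 6 libraries, with squares for male and circles for female mice, blue for WT and red for KO, and bars at the group means. The KO libraries sit above all WT libraries for Cxcr6, Cx3cr1 and Cxcr5 and below them for Cxcr4.

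Cxcr6 is the receptor for CXCL16 and is known from lymphocytes that stay in tissues such as the liver. It was at 69.2, 118, 91.9 and 65.3 CPM in WT 1 to WT 4 and at 521 and 1036 CPM in KO 1 and KO 2. Both KO libraries were far above every WT library, and KO 2 was 1.99 times KO 1. The log2 fold change was 3.12 ± 0.26 (SE, 95% interval 2.50 to 3.73, adjusted p = 6.57e-04), an 8.68-fold rise. With any library left out, the call held, at log2 fold changes of 2.69 to 3.49.

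Cxcr5, the receptor for CXCL13, guides B cells and follicular helper T cells into lymphoid follicles. Its WT levels were low, at 9.06, 10.1, 7.97 and 7.02 CPM, against 25.0 CPM in KO 1 and 64.4 CPM in KO 2. The groups did not overlap, and the KO libraries differed from each other by 2.57 times. KO exceeded WT by 2.29 ± 0.30 (log2, SE, 95% interval 1.58 to 2.99, adjusted p = 3.76e-03). It was 1.55 without KO 2 (adjusted p = 0.0289) and 2.90 without KO 1 (adjusted p = 1.71e-03), so its size depended on the KO library.

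Cx3cr1 encodes the receptor for the membrane-bound chemokine CX3CL1 and marks monocytes and mature NK cells. It was at 98.9, 137, 112 and 89.2 CPM in WT and at 159.8 and 218 CPM in KO. Every KO value was above every WT value, though KO 1 exceeded the highest WT library by little. On the log2 scale the difference was 0.78 ± 0.18 (SE, 95% interval 0.36 to 1.19, adjusted p = 0.0284), a 1.72-fold rise. The call was lost without WT 1 (adjusted p = 0.0827), without WT 3 (0.0621), without KO 1 (0.0769) or without KO 2 (0.196), and the log2 fold change then was 0.60 to 0.94.

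Cxcr4 binds CXCL12 and holds immature leukocytes in the bone marrow and immature thymocytes in the thymic cortex. WT libraries had 149, 109, 92.0 and 224 CPM, and KO libraries had 30.4 and 57.8 CPM. The WT values were spread over a wide range, and the KO libraries lay below all of them. The KO level was -1.75 ± 0.33 log2 units from WT (SE, 95% interval -2.53 to -0.97, adjusted p = 0.0152), or 3.36 times lower. The call was lost without KO 1 (-1.53, adjusted p = 0.113) and without KO 2 (-1.99, adjusted p = 0.0615), and in a robust fit (adjusted p = 0.0544). Immediate early and heat shock genes, which respond to handling, also differed between the libraries. Over the 16 genes of that list WT 1 to WT 4 had mean log2(CPM + 1) values of 5.68, 5.54, 7.32 and 8.61, against 4.54 and 5.01 for the KO libraries. Of the 16 genes 2 (Fos and Zfp36) were called lower in KO, beside 5.58% of all tested genes. The median log2 fold change of the 16 was -1.95, against 0.02 over all tested genes. With WT 3 and WT 4, the highest WT libraries on the list, left out, the Cxcr4 difference was -1.59 (adjusted p = 0.0121). WT 1 and WT 2, kept in that fit, also lay above both KO libraries on this list. The part of these genes' response in the Cxcr4 difference was not tested.

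The other 4 receptors were not called. Ccr8, a receptor for CCL1 found on regulatory T cells and skin-homing T cells, was at 20.7, 42.1, 23.0 and 26.1 CPM in WT and at 30.9 and 63.7 CPM in KO. KO 1 lay inside the WT range, because WT 2 was higher than KO 1. The difference was 0.71 ± 0.20 on the log2 scale (SE, 95% interval 0.24 to 1.18, adjusted p = 0.0574). It passed the threshold in 8 of 17 alternative analyses, among them the fit without WT 4 (0.54, adjusted p = 0.0382).

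Ccr9, the CCL25 receptor of thymocytes and gut-homing T cells, had the widest spread of the 8. WT 1 to WT 3 had 1.21, 1.45 and 3.24 CPM but WT 4 had 21.5 CPM, and the KO libraries had 9.73 and 30.0 CPM. WT 4 was thus higher than KO 1, and the groups overlapped through that library alone. The log2 difference was 1.76 ± 0.83 (SE, 95% interval -0.18 to 3.70, adjusted p = 0.207). Without WT 4 it was 3.15 (adjusted p = 0.0138), and without WT 3 and WT 4 it was 3.72 (adjusted p = 1.56e-03). Rag1, a recombinase gene of developing lymphocytes, was also highest in the same libraries, at 4.25, 11.2, 10.4 and 62.3 CPM in WT and 20.2 and 322 CPM in KO 1 and KO 2. The part of such cells in the Ccr9 counts was not tested.

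Ccr2, the CCL2 receptor by which monocytes and other leukocytes leave the marrow and enter inflamed tissue, was the most abundant receptor in WT cells. Its values were 1242, 1208, 1090.3 and 988 CPM in WT and 993 and 767 CPM in KO. KO 1 fell just within the WT range and KO 2 below it. The log2 fold change was -0.37 ± 0.12 (SE, 95% interval -0.65 to -0.09, adjusted p = 0.0818).

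Cxcr3 binds the interferon-induced chemokines CXCL9, CXCL10 and CXCL11 and brings effector lymphocytes to inflamed tissue. It was at 196, 199.7, 144 and 131 CPM in WT and at 139 and 102 CPM in KO. The groups overlapped, with WT 4 below KO 1. The log2 difference was -0.49 ± 0.21 (SE, adjusted p = 0.168). Its 95% interval reached from -0.98 to just under no change. Without WT 3 and WT 4, both Ccr2 (-0.49, adjusted p = 0.0347) and Cxcr3 (-0.73, adjusted p = 0.0214) were called lower.

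**Figure D2:**
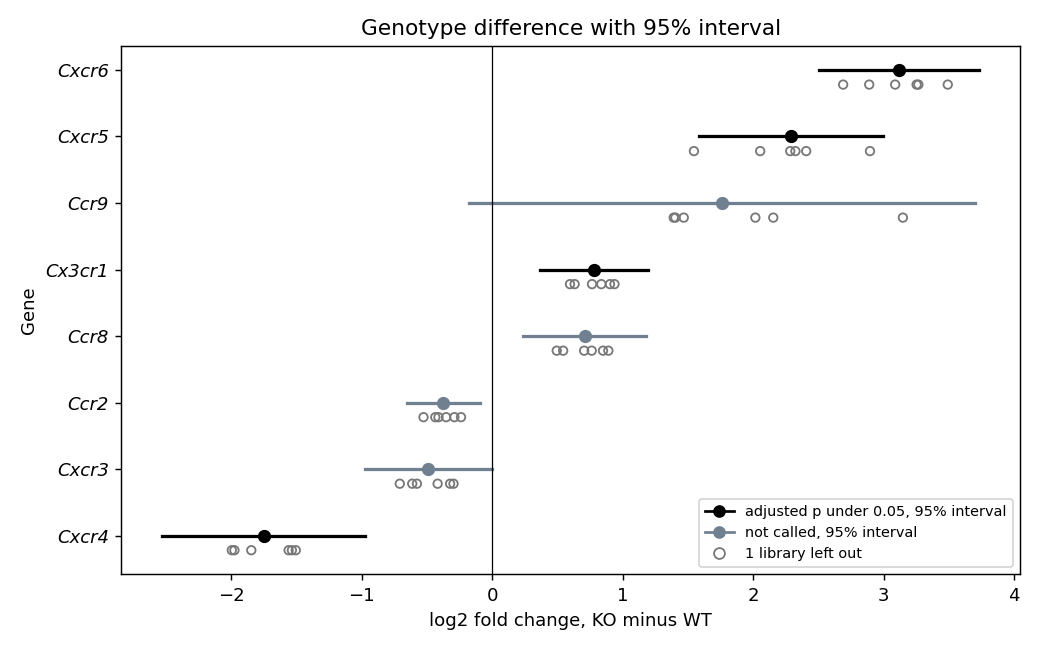
log2 fold change (KO minus WT) of each receptor, with the 95% interval of the fit as a line and the 6 values with 1 library left out as open circles. Called genes are black, and no leave-one-out value changes sign.

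The order of the receptors by level per transcript length changed between the genotypes. On the scale of reads per kilobase and scaled library (RPKM, here the TMM-scaled CPM divided by the gene length in the deposited table), mean WT levels ran from Ccr2 at 315 ± 32.3 (SD, n = 4) through Cxcr3 at 104 ± 21.8, Cxcr4 at 79.2 ± 32.4, Cxcr6 at 45.5 ± 12.8, Cx3cr1 at 29.3 ± 5.56 and Ccr8 at 24.2 ± 8.36 to Cxcr5 at 3.27 ± 0.517 and Ccr9 at 1.56 ± 2.23. Only the steps from Ccr2 to Cxcr3 and from Ccr8 to Cxcr5 separated neighbours whose WT values did not overlap. In KO cells the mean RPKM was highest for Cxcr6 at 411 ± 192 (SD, n = 2), followed by Ccr2 at 245 ± 44.4, Cxcr3 at 75.0 ± 16.3, Cx3cr1 at 50.7 ± 11.1, Ccr8 at 40.9 ± 20.1, Cxcr4 at 24.3 ± 10.7, Cxcr5 at 17.1 ± 10.6 and Ccr9 at 4.52 ± 3.26. Cxcr6 and Ccr2 were not separated, since Cxcr6 exceeded Ccr2 in KO 2 only, with KO 1 at 275 RPKM for Cxcr6 and 277 RPKM for Ccr2. Neighbours that did not overlap in KO were Ccr2 and Cxcr3, Cxcr3 and Cx3cr1, and Cxcr5 and Ccr9.

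As shares of the summed RPKM of the 8 genes, Cxcr6 made up 5.76% to 9.42% in WT libraries and 37.4% and 54.7% in KO 1 and KO 2. Ccr2 made up 48.4% to 55.6% in WT and 37.6% and 21.3% in KO. Cxcr4 made up 9.11% to 21.7% in WT and 2.27% and 3.18% in KO. The shares of these 3 receptors did not overlap between the genotypes. Those of Cxcr3, Cxcr5 and Cx3cr1 did not overlap either, and only those of Ccr8 and Ccr9 did. In CPM, however, Ccr2 and Cxcr3 overlapped between the genotypes, and 39.3% of all tested genes did not overlap. Shares of the same sum are not independent of each other. The sum itself was 546 to 661 RPKM in WT and 736 and 1002 RPKM in KO, so a lower share of Ccr2 came with a larger total. Among all genes ordered by RPKM, Cxcr6 stood at rank 1340 to 2595 in WT libraries and at rank 169 in KO 1 and 76 in KO 2, and Ccr2 stayed between ranks 144 and 229 in all 6.

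**Figure D3:**
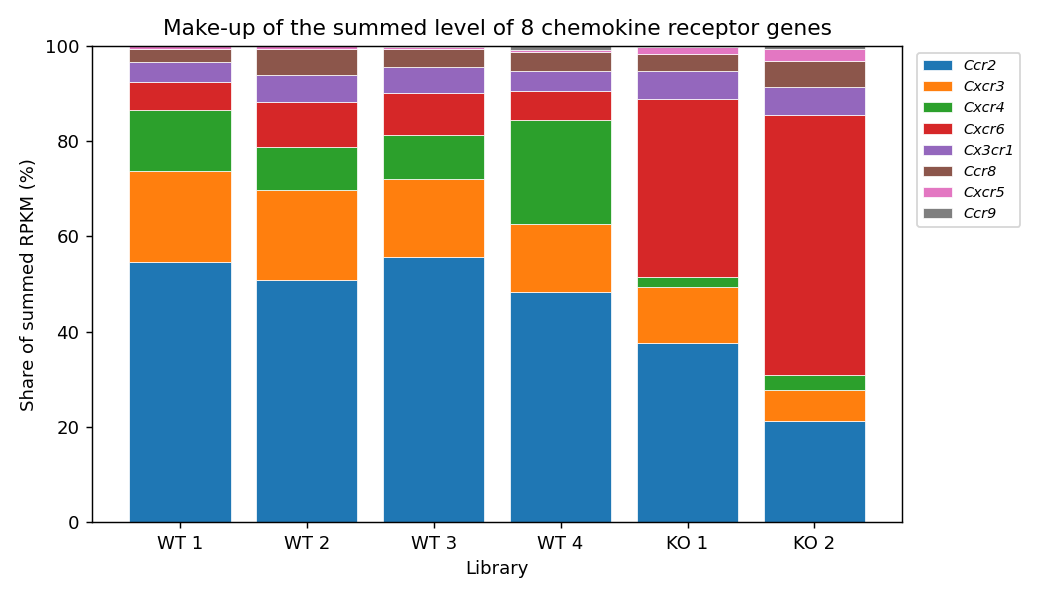
Share (%) of each receptor in the summed RPKM of the 8 genes, one bar per library. Cxcr6 (red) takes 37.4% and 54.7% in the KO libraries and at most 9.42% in any WT library, and Ccr2 (blue) is the largest share in all libraries but KO 2.

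Within each sex, the KO library differed from the mean of the 2 WT libraries in the same direction for all 8 receptors. The share of all tested genes with such agreement was not computed. Taken from the mean log2 CPM of the WT libraries, Cxcr6 was 6.53 times the WT level in the male KO library and 11.8 times in the female one. Cxcr5 was 2.92 times and 7.56 times the WT level. Each sex has a single KO mouse, so sex and mouse cannot be told apart here. The test of the genotype by sex interaction called 0.00% of all genes (0 of 13652, with 1368 at an unadjusted p under 0.05). Cxcr5 had the lowest interaction p of the 8 (log2 1.35 ± 0.37 SE, unadjusted p = 0.0106, adjusted p = 0.395). For the female minus male difference, edgeR also called 0.00% of genes (866 genes at an unadjusted p under 0.05, and 28 called by DESeq2), and none of the 8 receptors. Ccr8 was nevertheless higher in every female than in every male library of the same genotype, with a log2 difference of 0.78 ± 0.20 (SE, unadjusted p = 4.64e-03, adjusted p = 0.759). Sex was taken from the labels and was not checked here against genes of the X and Y chromosomes.

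Other receptors of the family were read beside the 8. Of 18 further chemokine and chemokine-like receptor genes, 12 passed the filter. Of the 12, 3 were called higher, beside 8.13% of all tested genes, and 2 lower, beside 5.58%. The median log2 fold change of the 12 was 1.30. The 3 that rose were each under 3 CPM in all WT libraries. Ccr1, a receptor for CCL3 and CCL5, had 14 counts in all WT libraries together, none in 2 of them and at most 0.363 CPM, and 14.4 and 47.7 CPM in KO (adjusted p = 2.00e-04). Xcr1, the receptor for XCL1 that marks cross-presenting dendritic cells, was at 1.13 to 2.50 CPM in WT and 13.0 and 27.8 CPM in KO (log2 fold change 3.47 ± 0.39 SE, adjusted p = 2.03e-03). Ccr6, the CCL20 receptor, had 20 WT counts in all and 7.53 and 11.2 CPM in KO (adjusted p = 0.0143), and was not called without KO 1 (adjusted p = 0.0612) or KO 2 (0.133).

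Among those that fell, Ccr10, a receptor for skin and mucosal chemokines, was at 7.53 to 10.8 CPM in WT and 1.39 and 1.89 CPM in KO (log2 fold change -2.48 ± 0.31 SE, adjusted p = 2.92e-03). Cmklr1, the chemerin receptor, was not called (0.26 ± 0.16 SE, adjusted p = 0.312), and Cxcr1 had no count in any library.

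Several receptors lie side by side on chromosome 9, and their differences were not alike. Within 200 kb of the 8 receptors the table held 40 other genes, of which 31 were tested. Of the 31, 6 were called higher, beside 8.13% of all tested genes, 2 lower, beside 5.58%, and 23 were not called. The median log2 fold change of the 31 was 0.20, also with Slc6a20a, which had no WT count, at its bound. Fyco1, a gene of autophagosome transport whose span contains Cxcr6 without sharing exon bases, was at 26.7 to 42.3 CPM in WT and 65.9 and 79.4 CPM in KO (1.16 ± 0.17 SE, adjusted p = 6.10e-03). Slc6a20a, an amino acid transporter gene, had 1.68 and 3.23 CPM in KO, at least 13.6-fold higher on average than 3 counts in the shallowest WT library, and was not called without KO 1 (adjusted p = 0.0687), without KO 2 (0.137) or by DESeq2 (0.142). From Cxcr6 along the cluster, the starts of Xcr1, Ccr1 and Ccr2 lie 45.8, 156 and 295 kb away. Xcr1 and Ccr1 were called higher, and Ccr2 was not called.

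Elsewhere, Gorasp1 near Cx3cr1 was called higher (2.42 ± 0.53 SE, adjusted p = 0.0251) and Rpsa, a ribosomal protein gene near Ccr8, lower (-0.50 ± 0.10 SE, adjusted p = 0.0153). Ogt, the gene of a sugar transferase near Cxcr3, was called higher (0.95 ± 0.14 SE, adjusted p = 6.10e-03). Gorasp1 was not called in any fit with 1 library left out (adjusted p = 0.0522 to 0.216). Rpsa was not called on leaving out either KO library, WT 1 or WT 3 (adjusted p = 0.0501 to 0.0912), and Ogt was not called without KO 1 (0.0628). The 23 neighbours that were not called had log2 fold changes of -0.86 to 3.23.

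**Figure D4:**
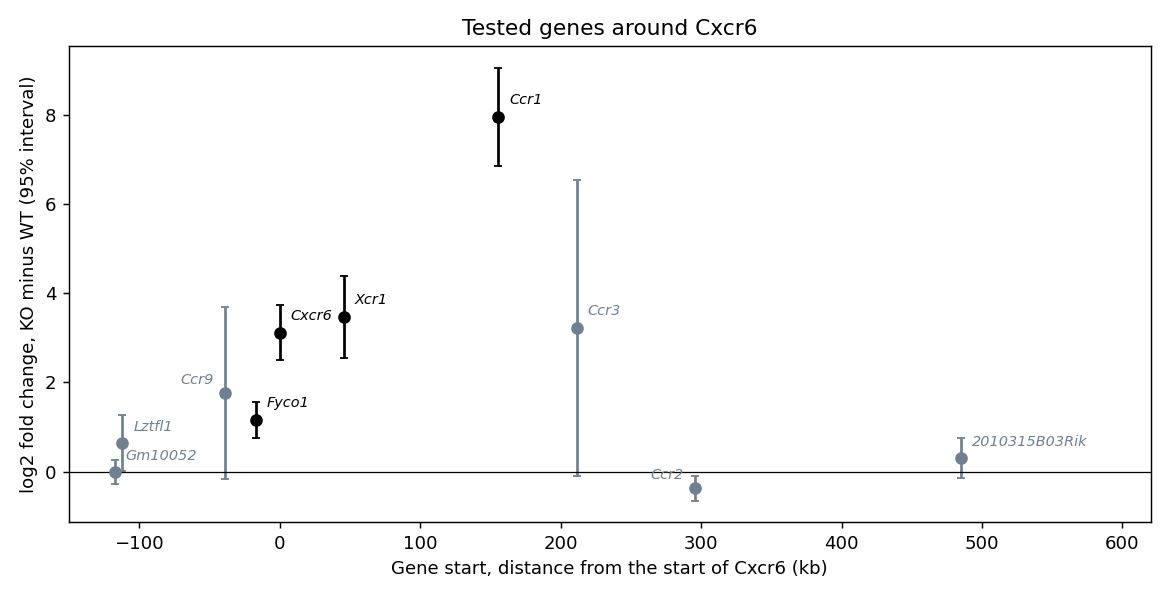
log2 fold change (KO minus WT) with its 95% interval for tested genes around Cxcr6 on chromosome 9, against the distance of each gene start from that of Cxcr6 in kb. Called genes are black, and the Ccr1 fold rests on 14 WT counts. Slc6a20a is left out because it had no WT count, and tested genes not reported here are also left out.

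Chemokines that bind the 8 receptors were scarce in these cells. Of 13 ligand genes, 6 passed the filter, with a median log2 fold change of 2.18. Of the 6, 1 was called higher by edgeR, beside 8.13% of all tested genes, and none lower. Cx3cl1, the ligand of Cx3cr1, was at 1.19 to 2.14 CPM in WT and 4.52 and 15.9 CPM in KO (2.64 ± 0.42 SE, adjusted p = 8.06e-03), and was not called without KO 2 (1.86, adjusted p = 0.132). Ccl1, the ligand of Ccr8, was at 4.74 to 9.19 CPM in WT and 9.96 and 15.5 CPM in KO (adjusted p = 0.146). Cxcl10, a ligand of Cxcr3, was at 8.27 to 13.3 CPM and 15.5 and 16.5 CPM (adjusted p = 0.148). Ccl2, Ccl12 and Cxcl11 had no count in any library.

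Of 7 genes listed as chemokines that NK cells may release, Ccl5 and Xcl1 had the highest levels per length. Of the 7, 6 were tested, with a median log2 fold change of -0.38. By edgeR 1 was called higher, beside 8.13% of all tested genes, and none lower. Ccl5 was at 1718 to 2273 CPM in WT and 1327 and 1777 CPM in KO (-0.28 ± 0.16 SE, adjusted p = 0.295). Xcl1 was at 390.3 to 468 CPM in WT and 395 and 467 CPM in KO (0.03 ± 0.10 SE, adjusted p = 0.889). The gene that rose was Ccl6, a chemokine of myeloid cells, at 0.324 to 0.646 CPM in WT and 3.82 and 8.02 CPM in KO (3.50 ± 0.47 SE, adjusted p = 3.83e-03), which was not called without KO 2 (adjusted p = 0.0862).

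Of 23 genes of signalling below the receptors, all were tested, and the median log2 fold change was -0.26. Of the 23, 2 were called higher, beside 8.13% of all tested genes, and 6 lower, beside 5.58%. Regulatory subunits of phosphoinositide 3-kinase gamma went in opposite directions. Pik3r6 was at 3.48 to 6.65 CPM in WT and 17.4 and 24.2 CPM in KO (1.95 ± 0.27 SE, adjusted p = 4.47e-03). Pik3r5 was at 255 to 352 CPM in WT and 131 and 207 CPM in KO (-0.94 ± 0.14 SE, adjusted p = 6.05e-03), and was not called without KO 2 (adjusted p = 0.0515). The others that fell included Wipf1 (-0.45, adjusted p = 0.0288) and Rac2 (-0.42, adjusted p = 0.0175), genes of actin control. The other gene that rose was Gng2, a G protein gamma subunit (0.48, adjusted p = 0.0480). Wipf1 was not called in 4, Rac2 in 3 and Gng2 in 5 of the 6 fits with 1 library left out (adjusted p = 0.0524 to 0.327). Coro1a, an actin regulator, was not called (-0.22, adjusted p = 0.140).

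Genes that switch receptors off or modify them included the largest change of the signalling lists. Of 17 tested, 3 were called higher, beside 8.13% of all tested genes, and 1 lower, beside 5.58%. The median log2 fold change of the 17 was -0.00. Grk3, a receptor kinase, was at 1.13 to 1.65 CPM in WT and at 26.7 and 46.7 CPM in KO (4.62 ± 0.21 SE, adjusted p = 9.41e-05). Its relative Grk2 was at 688 to 773 CPM in WT and 497 and 545 CPM in KO (-0.49 ± 0.09 SE, adjusted p = 0.0108), and was not called without WT 3 (0.0503), KO 1 (0.0501) or KO 2 (0.0724). Arrb1, an arrestin, was at 70.9 to 87.2 CPM and 119 and 199 CPM (0.98 ± 0.18 SE, adjusted p = 0.0117), and was not called without KO 2 (adjusted p = 0.100). Rgs18, a brake on G protein signalling, rose by 0.97 ± 0.22 on the log2 scale (SE, adjusted p = 0.0274), and was not called in 4 of the 6 fits with 1 library left out (adjusted p = 0.0572 to 0.193). Grk6 was not called (-0.26, adjusted p = 0.0921).

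The genes whose profile over the 6 libraries was most like that of each receptor were found by the root mean square difference of log2 CPM centred on each gene's mean, among 10104 genes. For Cxcr6 these were Src (0.23) and Pygl (0.27), for Cxcr5 Cd93 (0.15) and Cdh1 (0.20), and for Cx3cr1 Cd101 (0.10) and Myo1e (0.11). For Cxcr4 they were Elovl7 (0.30) and Frat1 (0.31), for Ccr8 Flvcr1 (0.19) and Smyd3 (0.20), and for Ccr9 Pld4 (0.34) and Cd8b1 (0.41). For Ccr2 they were Man1a (0.05) and Arhgap25 (0.05), and for Cxcr3 Ripor2 (0.11) and Arhgef3 (0.11). A flat profile gives a small difference with many genes, so these distances are a description within each receptor.

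Several of the 8 receptors are also expressed by cells other than NK cells, and marker lists of such cells were read in the same libraries as the mean log2(CPM + 1) over each list. NK cell markers were highest of all lists, at 9.46 to 9.55 in WT and 9.29 and 8.96 in KO 1 and KO 2. Of the 16 genes, 4 were called lower, beside 5.58% of all tested genes, and none higher. Eomes, an NK cell transcription factor, was at 800.1 to 929 CPM in WT and 295 and 140.2 CPM in KO (-2.11 ± 0.22 SE, adjusted p = 1.59e-03). The summed level of the list was 16519 to 17211 CPM in WT and 16147 and 13683 CPM in KO. The rule for naming gave Gzma (0.47), Il2rb (-0.18) and Klrk1 (-0.25 on the log2 scale), none of them called, though Gzma was called higher without WT 4 (0.64, adjusted p = 6.75e-03).

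Each list of another cell type held genes called higher in KO, to be read beside 8.13% of all tested genes called higher and 5.58% called lower. The alpha-beta T cell list was at 3.89 to 5.32 in WT and 6.11 and 6.18 in KO, with 6 of 14 genes called higher and 1 lower, and its summed level was 535 to 845 CPM in WT and 1836 and 2279 CPM in KO. Trac was at 16.8 to 39.1 CPM in WT and 405 and 636 CPM in KO, and Trbc2 at 70.1 to 101 and 472 and 941 CPM, while Cd3g (1.38, adjusted p = 0.0566) was called only without WT 2 (1.53, adjusted p = 0.0471) or KO 2 (2.16, adjusted p = 0.0154) among the fits with 1 library left out. The gamma-delta T cell list was at 3.34 to 3.77 in WT and 5.60 and 5.38 in KO (8 of 11 called higher; summed 333 to 495 CPM against 1099 and 1032 CPM), with Maf and Trgc1 higher, Trdc not called and Il17a without a count. The thymocyte progenitor list was at 2.78 to 4.32 in WT (highest in WT 4) and at 3.39 and 5.41 in KO (3 of 10 called higher; summed 302 to 446 CPM against 266 and 863 CPM). Rag1, Dntt and Tcf12 of that list were not called, though Rag1 was called higher without WT 2 (1.91, adjusted p = 0.0209) or WT 4 (3.12, adjusted p = 0.0367).

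The natural killer T and regulatory T cell list was at 2.71 to 3.07 in WT and 3.31 and 3.77 in KO (1 of 7 called higher, Icos; summed 132 to 156 CPM against 184 and 310.5 CPM), with Ikzf2 and Zbtb16 not called, though Ikzf2 was called higher without KO 1 (0.90, adjusted p = 0.0134). Icos was not called without KO 2 (adjusted p = 0.0868). The ILC2 and ILC3 list was at 1.88 to 2.20 in WT and 2.75 and 3.39 in KO (4 of 9 called higher; summed 321 to 422 CPM against 368 and 684 CPM). Kit and Gata3 of that list were not called, and Il22 had no count.

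The B cell list was at 1.69 to 2.42 in WT and at 4.54 and 3.15 in KO (6 of 12 called higher; summed 399 to 449 CPM against 619 and 448 CPM). Cd79b was at 3.60 to 5.53 CPM in WT and 38.4 and 19.3 CPM in KO, Ighm was not called, and Cd22 (adjusted p = 0.0491) was not called without WT 1, WT 2, WT 3 or KO 1 (adjusted p = 0.084 to 0.484). The myeloid and dendritic cell list was at 0.635 to 2.71 in WT and 2.79 and 3.69 in KO (2 of 17 called higher; summed 36.3 to 212 CPM against 507 and 666 CPM), with Cd74 and Mpo called. Mpo, a granule gene of myeloid cells, was at 0 CPM in WT 1 to WT 3, 0.565 CPM in WT 4, and 10.9 and 75.2 CPM in KO. Lyz2 (adjusted p = 0.105) and S100a9 (adjusted p = 0.113) were not called with all libraries, but both were called higher without WT 4 (adjusted p = 0.0368 and 1.80e-05). The stromal and epithelial list was at 0.742 to 0.872 in WT and 1.41 and 1.97 in KO (5 of 7 called higher; summed 111 to 119.9 CPM against 278 and 485 CPM), with Pecam1, Epcam and Pdgfrb higher and Ccl19 and Ccl21a without a count. Pdgfrb was not called without KO 2 (adjusted p = 0.0907). The part of such cells in the receptor counts was not tested.

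**Figure D5:**
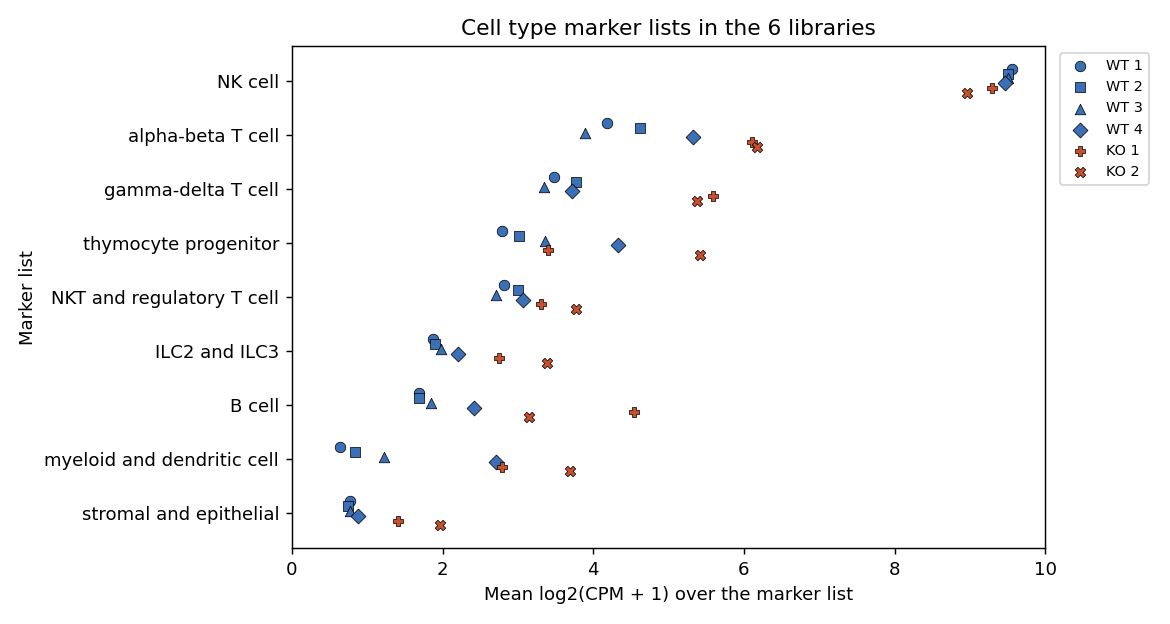
Mean log2(CPM + 1) of 9 cell type marker lists in each of the 6 libraries, with blue symbols for WT and red for KO. The NK cell list is highest in every library and lower in both KO libraries, and the lists of other cells reach higher values in KO 2 than in any WT library.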

How the data were processed

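RNA-seq libraries of sorted thymic NK cells from 4 WT and 2 Tcf7 KO mice were compared. Per the labels' protocols, RNA was purified with a column kit for small samples, amplified with SMART-Seq v4, which does not mark strand, and read as paired ends on a NextSeq instrument. The authors deposited raw, unscaled counts per Entrez gene. The submitters' processing notes name featureCounts and mm10. The sources used here do not give the aligner or versions. Reads were amplified from few cells without molecular identifiers, so the floor of 3 counts covers counting error only. The series table (26332 genes, 0 columns from other series) and the 6 files per sample held the same counts. Symbols came from the RefSeq gene table of GRCm38.p6 (25275 IDs matched). Exon overlap was read from the GENCODE annotation of the same build.

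Groups, replicate numbers and sex came from the labels. Counts filtered by filterByExpr and scaled by TMM were fitted in R 4.3.3 by edgeR 4.0.16 (glmQLFit, glmQLFTest) with genotype and sex as terms (residual degrees of freedom 3, prior 4.50, common biological coefficient of variation 0.239). Benjamini-Hochberg adjustment covered all 13652 tested genes, with calls at an adjusted p under 0.05. Every adjusted p is from this edgeR test where no other tool is given. The SE is the absolute log2 fold change divided by the square root of F. The interaction was tested in its own fit. Log2 CPM for profile likeness and for the folds within each sex used a prior count of 2. The table's gene lengths gave RPKM. Libraries of the same group were further apart than counting error (chi-square divided by its degrees of freedom, 8.86 to 62.2 for WT pairs and 53.7 for the KO pair), and none was merged.

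The 8 receptors and the gene lists were chosen with earlier results of these data known. Named were all 8 receptors, up to 4 called genes with the largest change and the 2 with the highest level per length of each chemokine or signalling list, the 3 marker genes with the highest KO level of each marker list, tested neighbours within 200 kb and the 2 genes most like each receptor. Ncr1, Klrb1c, Cd8a, Cd3d, Cd3e, Trbc1, Eomes, Fos, Zfp36 and Mpo were named after their values were seen. A few genes covered by this rule are not reported here. The alternatives tried were other scalings (RLE, library size, upper quartile), no filter or at least 5 CPM in 2 libraries, DESeq2 1.42.0, limma 3.58.1 voom, a robust fit, leaving out sex, a block on replicate number, each library left out, and WT 3 and WT 4 left out together. With 1 KO library left out, the other was assumed to vary like WT. On simulated counts for the genotype comparison (13339 genes), the test found 62% of 2-fold and 83% of 4-fold changes, and 16 of its 161 calls were wrong.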

Additional observations from a re-analysis of the deposited data

Results flagged for a closer look

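The values below stand apart from the other libraries of their group: in each, the WT 4 library was the highest of the 4 WT libraries by a gap above the 95% critical value of Dixon's test. The screen looked at either end of the 4 WT values in 59 genes and flagged these 6. For any library at either end, chance does this in about 1 in 20 groups of normally distributed values. Genes measured in the same libraries are not independent of each other. Ccr9 was at 21.5 CPM in WT 4 and at 1.21 to 3.24 CPM in the other WT libraries. Rag1 was at 62.3 CPM in WT 4 and at 4.25 to 11.2 CPM in the others. S100a9, a neutrophil gene, was at 17.6 CPM in WT 4 and at 0 to 0.0405 CPM in the others. Gzma was at 3411 CPM in WT 4 and at 2341 to 2505 CPM in the others. Ccl5 was at 2273 CPM in WT 4 and at 1718 to 1778 CPM in the others. Cx3cl1 was at 2.14 CPM in WT 4 and at 1.19 to 1.26 CPM in the others. Whether these values share a source was not tested.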

How the results depend on the processing

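All 8 receptors kept their direction in all 17 alternatives. Cxcr6 and Cxcr5 were called in 17 of 17, Cxcr4 in 14, Cx3cr1 in 13, Ccr8 in 8, Ccr2 in 4, Ccr9 in 3 and Cxcr3 in 2. The number of receptors called higher was 3 and ranged from 2 to 5 with 1 library left out (5 without WT 4). The number called lower was 1 and became 2 without a filter on low counts and with DESeq2 (Ccr2 and Cxcr4), 0 in the robust fit, 3 without WT 3 and WT 4 and 0 to 1 with 1 library left out. All genes called numbered 1872, with 2955 by DESeq2 and 934 to 1908 with 1 library left out. Without WT 4, 1159 of 13485 genes were called higher. Genes called lower numbered 1002 of 17764 without a filter, 1361 of 13652 with DESeq2, 856 of 13652 in the robust fit and 514 of 13267 without WT 3 and WT 4. Library-size scaling gave 1335 higher and 524 lower calls against 1110 and 762, a share of 71.8% higher against 59.3%, and moved the median log2 fold change from 0.02 to 0.10. The sex comparison called 0 genes, 15 without a filter, 28 by DESeq2 and 0 to 4 with 1 library left out. The causes of these shifts were not tested.

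The replicate number as a block, without the sex term, called 1341 of 13652 genes, 855 higher and 486 lower. Of the receptors, 3 were called lower (Ccr2, Cxcr3 and Cxcr4) and 4 higher (Ccr9 added, 3.72, adjusted p = 2.38e-03). Only numbers 1 and 2 are shared between the genotypes, and the labels do not say that a number marks a shared litter or day, so the block is given as an alternative. Deviations from the group means correlated across genes at 0.13 between KO 1 and WT 1 and at -0.05 between KO 2 and WT 2. With 2 KO libraries these deviations are mirror images of each other, so the correlations cannot show whether the numbers pair the mice.

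Reversed directions occurred in genes that were not called. With 1 library left out, the log2 fold change ranged from -0.069 (without KO 1) to 0.56 (without KO 2) for Cmklr1, from -0.59 to 0.0075 (without KO 2) for Ccl5, from -0.049 (without KO 2) to 0.088 for Xcl1, which was at -0.026 without WT 2, and from -0.42 (without KO 1) to 1.02 for Trdc. It ranged from -0.40 to 0.15 (without KO 1) for Tcf12, from -0.13 (without KO 2) to 1.97 for Dntt, from -0.071 (without KO 1) to 0.95 for Zbtb16 and from -0.70 (without KO 2) to 0.73 for Kit. Kit was also at -0.19 without WT 4, -0.18 without WT 3 and WT 4 and -0.18 under the block, and Ighm was at 0.0023 with library-size scaling. With 2 KO mice each difference is limited by the spread between them, and levels under 0.0988 to 0.180 CPM were not measurable at this depth.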
